A study of Arabidopsis thaliana with 6 samples.

Results

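The loss of miRNAs in hyl1-2 was described across miRNA families, using 4 of the 6 small RNA libraries of the series: 2 of hyl1-2 and 2 of the wild type (WT). hyl1-2 is a single mutant of HYPONASTIC LEAVES 1 (HYL1) in the Col-0 ecotype of Arabidopsis thaliana, and WT is Col-0. RNA came from rosette leaves of plants that had grown in soil and were 3 weeks old, and each genotype had 2 biological replicates. How many plants each library pooled is not given in the sources used here, and neither the HYL1 transcript nor a leaf marker is among the small RNAs counted, so these labels could not be checked. The other 2 libraries, from the snrk2.2/3/6 triple mutant of SnRK2 kinases, entered only the estimate of replicate spread and the read filter. That filter decided which families and sequences were tested. All 349 mature miRNA sequences listed were used, pooled into 213 families by the number in the miRNA name. Of these families, 98 had at least 1 read in hyl1-2 or WT.

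HYL1 is a double-stranded RNA-binding protein of the plant miRNA processing complex. Together with the zinc finger protein SERRATE it assists DCL1, a Dicer enzyme that cuts the mature miRNA and its partner strand out of a hairpin precursor. The miRNA is then loaded into an ARGONAUTE protein, mostly AGO1, and directs the cleavage or translational repression of matching mRNAs. Plants without HYL1 survive but have narrow, curled leaves and altered hormone responses.

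Sequences of the families that lead the WT reads are shown first, since they carried most of the loss. Each is written 5′ to 3′ as DNA, as in the deposited table, with the seed (bases 2 to 8) in capitals.
miR159a: tTTGGATTgaagggagctcta
miR159b-3p: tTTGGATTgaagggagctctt
miR158a-3p: tCCCAAATgtagacaaagca
miR166a-3p/b-3p/c/d/e-3p/f/g: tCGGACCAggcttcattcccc
miR165a-3p/b: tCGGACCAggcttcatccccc
miR398b-3p/c-3p: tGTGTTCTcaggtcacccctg
miR161.1: tGAAAGTGactacatcggggt
The 2 miR159 sequences share 1 seed, as do miR165 and miR166. By exact match to the TAIR10.1 genome, miR159a lies in the exon of MIR159a (AT1G73687, chr1:27713234-27713254, minus strand) and miR159b-3p in that of MIR159b (AT1G18075, chr1:6220813-6220833, plus strand). miR165a-3p/b matches MIR165a (AT1G01183, chr1:78932-78952, minus strand) and MIR165b (AT4G00885, chr4:369856-369876, minus strand), and the miR166 sequence matches 7 loci.

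The families at the 2 ends of the loss are represented by the sequence with most reads in WT. These belong to families that were lowest in hyl1-2 relative to WT.
miR781a/b: tTAGAGTTttctggatactta
miR824-3p: cCTTCTCAtcgatggtctaga
miR173-5p: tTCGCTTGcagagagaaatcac
miR319a/b: tTGGACTGaagggagctccct
miR447a.2-3p: tATGGAAGaaattgtagtatt
The next set belongs to families that lost least or were higher, and for miR168 and miR408 includes the other arm, since both arms had many reads.
miR168a-3p: cCCGCCTTgcatcaactgaat
miR168a-5p/b-5p: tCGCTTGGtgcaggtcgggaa
miR408-3p: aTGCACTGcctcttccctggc
miR408-5p: aCAGGGAAcaagcagagcatg
miR822-5p: tGCGGGAAgcatttgcacatg
miR5026: aCTCATAAgatcgtgacacgt
miR393b-3p: aTCATGCGatctctttggatt
miR840-5p: aCACTGAAggacctaaactaac
No seed was shared within or between these sets. miR5026 matches the exon of MIR5026 (AT4G06075, chr4:7844612-7844632, plus strand), which lies inside the noncoding gene AT4G13495 on the same strand, and a second place outside annotated genes (chr5:14318730-14318750, minus strand). miR393b-3p lies in the exon of MIR393b (AT3G55734, chr3:20691778-20691798, plus strand). miR840-5p lies in MIR840 (AT2G02741, chr2:771492-771513, minus strand) and also overlaps an AT2G02750 exon, a protein-coding gene of the same orientation, so reads of both cannot be told apart.

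The libraries held 19601046 and 18406046 genome-matched reads in hyl1-2, against 16350213 and 16299073 in WT. Of these, 7141 and 6670 were identical to a listed miRNA in hyl1-2, against 34567 and 30427 in WT. Levels are given as RPTM, reads per 10000000 genome-matched reads, which keeps a change common to all miRNAs. Shares are percentages of all miRNA reads of a library, in which such a common change cancels and 1 family can gain only where others lose. The 95% intervals given below cover counting error only. Reads cut at other positions than a listed miRNA were not counted, in WT or in hyl1-2. The paper reports that the accuracy of miRNA processing was affected in this mutant. Counts of identical reads cannot separate less miRNA from shifted cutting, for families, copies, loci or arms. The part of each in the losses described below was not tested.

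Summed over all families, miRNAs reached 3633 ± 13.7 RPTM in hyl1-2 and 19905 ± 1749 RPTM in WT (SD, n = 2 each), or 18.3% of WT. With 2 libraries against 2, an exact two-sided permutation test cannot go below p = 0.3333, which is the value obtained. The sum depended on a few families. miR159 alone made up 31.9% of the RPTM lost, miR158 15.5% and miR166 13.1%, together 60.5%. Without miR159 the remaining miRNAs were at 23.1% of WT, and without miR5026 the total was at 14.6%.

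Families were lost to very different extents. Among the 37 families that averaged 10 RPTM or more in WT, which held 99.4% of the WT miRNA reads, the median family was at 14.6% of WT, and the quartiles were 5.61% and 23.5%. Each hyl1-2 library alone gave a median of 14.3% or 13.9%, while against WT replicate 2 alone the median was 17.9%. Of these, 13 families were below 10% of WT, 18 between 10% and 30%, 0 between 30% and 40%, and 6 above 40%. The plot of family levels shows this gap between miR164 at 25.8% and miR399 at 41.1%. It did not hold for single libraries: when 1 library was left out, miR164 ranged from 13.9% to 37.7% and miR399 from 14.2% to 68.0%.

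**Figure D1:**
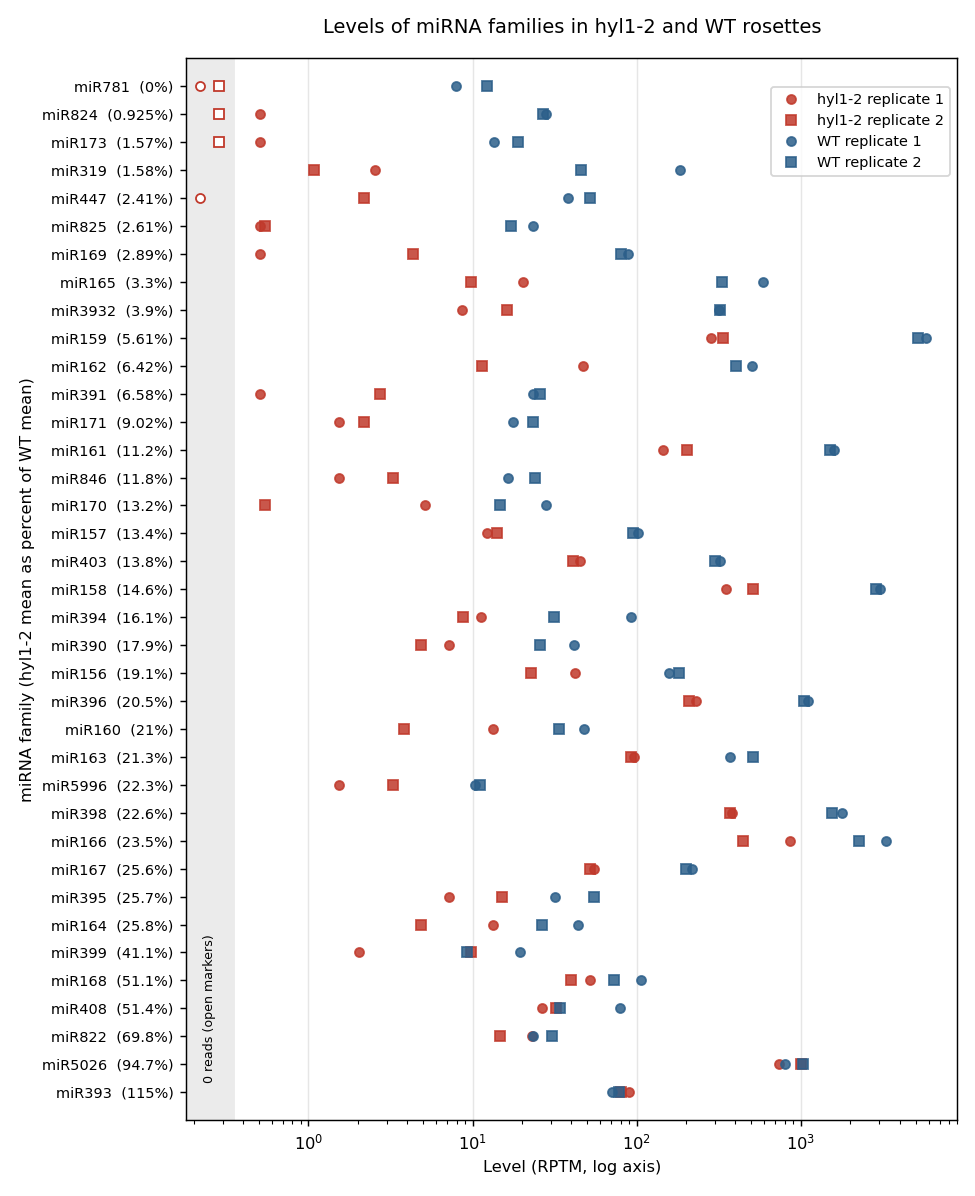
Level of each of the 37 families that averaged 10 RPTM or more in WT, on a log axis, in the 2 hyl1-2 (red) and 2 WT (blue) libraries; open markers in the grey band are libraries with 0 reads, and the number beside each name is the hyl1-2 mean as percent of the WT mean. The hyl1-2 points lie left of the WT points in most families and overlap them for miR399 and miR5026, while both miR393 points of hyl1-2 lie right of WT.

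The quasi-likelihood test of edgeR was run on the 39 families that averaged 10 reads or more across all 6 libraries. Per genome-matched reads, 28 were lower in hyl1-2 at a Benjamini-Hochberg adjusted p under 0.05 (71.8%) and 1, miR840, was higher (2.56%). The hyl1-2 reads of miR840 were enough by themselves to bring it past the filter. In 33 families (84.6%) each hyl1-2 library was below each WT library, and in 2 (5.13%), miR393 and miR840, each was above. These counts hold for scaling to genome-matched reads. Scaling to the total miRNA count moved the median log2 fold change of the 39 families to -0.14, against -2.62 per genome-matched reads. When 1 library was left out, 11 families were lower without hyl1-2 replicate 1, 11 without hyl1-2 replicate 2, 13 without WT replicate 1 and 12 without WT replicate 2, and no family was higher without hyl1-2 replicate 1, WT replicate 1 or WT replicate 2. With no filter on low counts edgeR called 0 of 104 families lower, with 38 at an unadjusted p under 0.05. With the filter kept, limma and DESeq2 with the same totals each called 30 lower. The snrk2.2/3/6 libraries stood apart from each other, with 29014 and 10386 miRNA reads. When hyl1-2 and WT were fitted without them, on the same 39 families, 30 were lower and 1 higher.

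miR781, miR824, miR173, miR319 and miR447 were the lowest families relative to WT. Here and below targets are named per family, whose counts pool both arms, and need not be those of the strand with most reads. miR781 had 0 and 0 reads in hyl1-2, against 13 and 20 reads in WT, and at a floor of 3 reads per library it was at least 6.40-fold lower. miR824, a family that targets the MADS-box gene AGL16 and whose leading sequence in WT was miR824-3p, had 1 and 0 reads in hyl1-2, against 46 and 44 in WT. Pooled, the family was at 0.95% of WT (95% interval 0.0239 to 5.46%). miR173, which starts the production of trans-acting siRNAs (tasiRNAs) from TAS1 and TAS2 transcripts, had 1 and 0 reads in hyl1-2, against 22 and 31 in WT, or 1.62% of WT (0.0403 to 9.43%). In all of these the libraries of the 2 genotypes were well apart, but the mutant levels rested on single reads.

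miR319, which targets TCP transcription factors of leaf growth, had 5 and 2 reads in hyl1-2, against 302 and 75 in WT. Its level averaged 1.82 ± 1.04 RPTM in hyl1-2 and 115 ± 98.1 RPTM in WT (SD, n = 2 each), a fitted log2 fold change of -5.92 with a standard error of 1.11 and an edgeR adjusted p of 9.27e-06. WT replicate 1 was far above WT replicate 2, and both were above the mutant. miR447 had 0 and 4 reads in hyl1-2, against 62 and 85 in WT, at 2.41% of WT. Slightly above these came miR825 with 1 and 1 reads in hyl1-2, against 38 and 28 in WT, and miR169, a regulator of NF-YA transcription factors, with 1 and 8 reads in hyl1-2, against 144 and 130 in WT. When 1 library was left out, miR319 ranged from 0.94% to 3.95% of WT, miR447 from 0% to 4.83% and miR169 from 0.61% to 5.18%.

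In RPTM, miR159 lost most. It directs the cleavage of mRNAs for GAMYB-like transcription factors such as MYB33 and MYB65, and was the first family in WT. It had 556 and 614 reads in hyl1-2, against 9493 and 8483 in WT, so that its level averaged 309 ± 35.3 RPTM in hyl1-2 and 5505 ± 425 RPTM in WT (SD, n = 2 each). This was 5.61% of WT, a log2 fold change of -4.16 with a standard error of 0.71 and an edgeR adjusted p of 1.85e-06. Below it in relative level were miR165 at 3.30% and miR3932 at 3.90% of WT, each with 17 to 40 reads per hyl1-2 library. miR165, which targets class III HD-ZIP transcription factors of leaf polarity, had 40 and 18 reads in hyl1-2, against 957 and 537 in WT, and was at 2.14% of WT without hyl1-2 replicate 1. miR3932 had 17 and 30 reads in hyl1-2, against 520 and 524 in WT. The genotypes did not overlap in any of the 3.

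Of the other families among the 10 most abundant in WT, 6 were between 11.2% and 23.5% of their WT level (miR5026 and miR162 are given further on). miR161, whose targets encode pentatricopeptide repeat (PPR) proteins, had 144 and 203 RPTM in hyl1-2, against 1598 and 1502 RPTM in WT. miR158 had 349 and 514 RPTM in hyl1-2, against 3031 and 2862 RPTM in WT, at 14.6% of WT. Both families were lower per genome-matched reads (adjusted p = 0.00116 and 0.00113, edgeR). miR396, which targets growth-regulating factors, was at 20.5% of WT, miR163, which targets methyltransferase mRNAs, at 21.3%, and miR398, which targets copper/zinc superoxide dismutases, at 22.6%. miR166, with the same targets as miR165, was at 23.5% and differed between the mutant libraries, with 865 and 446 RPTM in hyl1-2, against 3295 and 2270 RPTM in WT. These last 4 were lower per genome-matched reads, with adjusted p between 0.00923 and 0.0189, but their fitted log2 changes turned positive, between 0.16 and 0.38, when scaled to the total miRNA count.

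The families above 40% of WT were miR399, miR168, miR408, miR822, miR5026 and miR393, and none of them passed the level test. miR5026 was the most abundant of them, with 736 and 999 RPTM in hyl1-2, against 806 and 1026 RPTM in WT. The mutant libraries overlapped those of WT at 94.7% of the WT mean, a log2 fold change of -0.08 with a standard error of 0.77 and an edgeR adjusted p of 0.919. miR393, which targets the auxin receptor TIR1 and related F-box proteins, had 90.3 and 79.9 RPTM in hyl1-2, against 70.3 and 77.9 RPTM in WT. Its log2 fold change of 0.20, with a standard error of 0.89 and an edgeR adjusted p of 0.868, did not pass, although both hyl1-2 libraries were above both WT libraries.

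miR168, which targets the AGO1 mRNA, had 52.0 and 39.7 RPTM in hyl1-2, against 107 and 72.4 RPTM in WT. miR408, a copper-responsive miRNA that targets laccases and plantacyanin, had 26.5 and 32.1 RPTM in hyl1-2, against 79.5 and 34.4 RPTM in WT, and was at 85.3% of WT without WT replicate 1. These values pool its arms, of which miR408-3p was at 37.5% and miR408-5p at 130% of WT. miR822, whose targets encode DC1-domain proteins, had 23.0 and 14.7 RPTM in hyl1-2, against 23.2 and 30.7 RPTM in WT. In these 3 the mutant libraries lay below WT per genome-matched reads, in miR408 and miR822 by little, whereas their shares of the miRNA reads were higher (given with the shares). miR399, a phosphate-starvation miRNA that targets PHO2, had only 4 and 18 reads in hyl1-2, against 32 and 15 in WT, and the genotypes overlapped. The standard errors of these level changes were between 0.77 and 1.13 on the log2 scale, so a moderate loss could not be told from none. miR840, under 10 RPTM in WT, had 70 and 35 reads in hyl1-2, against 3 and 5 in WT. Its hyl1-2 reads alone brought it past the read filter, which families as rare in WT, such as miR400 and miR775, did not reach. A rise was thus a way into the test for a family this rare. For miR840 the log2 fold change was 3.44 with a standard error of 1.11 and an edgeR adjusted p of 0.00599. It passed again without hyl1-2 replicate 2 but not when any other of the 4 libraries was left out.

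Families grouped by known targets lay on both sides of the median. Of 14 families that target transcription factors 13 were tested and 11 were lower, beside 71.8% lower among all families tested, with a median of 13.4% of WT, against 14.6% over all 37 families above 10 RPTM. The 2 that did not pass were miR167 at 25.6% and miR164 at 25.8%, with adjusted p of 0.0504 and 0.0505 by edgeR. Of the families that target silencing genes, miR162, directed at DCL1, was at 6.42% of WT (2.51% without hyl1-2 replicate 1, 10.3% without hyl1-2 replicate 2), and miR403, directed at AGO2, at 13.8%, and both were lower, whereas miR168 did not pass. Both tested tasiRNA triggers were lower, miR173 and miR390, the trigger of TAS3 tasiRNAs, which had 14 and 9 reads in hyl1-2, against 68 and 42 in WT. Both tested families of the PPR list, miR158 and miR161, were lower.

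In the other lists the members were divided. miR394, which targets the F-box gene LCR, was at 16.1% of WT and lower (31.8% without WT replicate 1, 10.8% without WT replicate 2). miR393 of the same list, with reads mostly of miR393b-3p, did not pass. Of the copper families miR398 was lower and miR408 did not pass. Of the nutrient families miR395, which targets ATP sulfurylases, was at 25.7% of WT (16.4% without hyl1-2 replicate 2) and lower (adjusted p = 0.0444, edgeR), and miR399 did not pass. Of 23 tested families shared among flowering plants 17 were lower and 0 higher, with a median of 19.1% of WT. Of the 16 other tested families 11 were lower and 1 was higher, with a median of 11.5% of WT over the 16. Both counts lie near the 71.8% lower among all 39. The 16 held both the lowest families (miR781, miR824) and the family above 10 RPTM nearest to WT, miR5026.

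Because losses differed, the make-up of the miRNA reads shifted. As shares of all miRNA reads, 11 of the 39 families were lower in hyl1-2 (28.2%) and 7 were higher (17.9%) by edgeR with the miRNA totals as library sizes. The libraries of the 2 genotypes did not overlap in any of these 18 families, while of all 39 families 17 lay below (43.6%) and 11 above (28.2%). When hyl1-2 and WT alone were fitted, 3 of the 11 were still lower (miR159, miR165 and miR3932) and 5 of the 7 higher (miR168, miR393, miR5026, miR840 and miR866). Leaving out hyl1-2 replicate 1 or WT replicate 2 left 7 lower.

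In percentage points, miR159 and miR5026 had the largest differences in share. miR159 made up 7.79% and 9.21% of the miRNA reads in hyl1-2, against 27.5% and 27.9% in WT, a log2 fold change of -1.70 with a standard error of 0.32 and an edgeR adjusted p of 1.45e-05. It moved to rank 5 in hyl1-2, against rank 1 in WT. miR5026 made up 20.2% (95% Wilson interval 19.3 to 21.2%) and 27.6% (26.5 to 28.6%) in hyl1-2, against 3.81% (3.62 to 4.02%) and 5.50% (5.24 to 5.76%) in WT. Its log2 fold change of share was 2.36, with a standard error of 0.34 and an edgeR adjusted p of 4.92e-08, and it was rank 1 in hyl1-2, against rank 7 in WT. In hyl1-2 replicate 1 miR166 was still ahead of it with 23.7%, against 12.3% in hyl1-2 replicate 2. The plot of the make-up by library shows both mutant libraries with the same narrow miR159 band but with miR166 bands of different height.

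**Figure D2:**
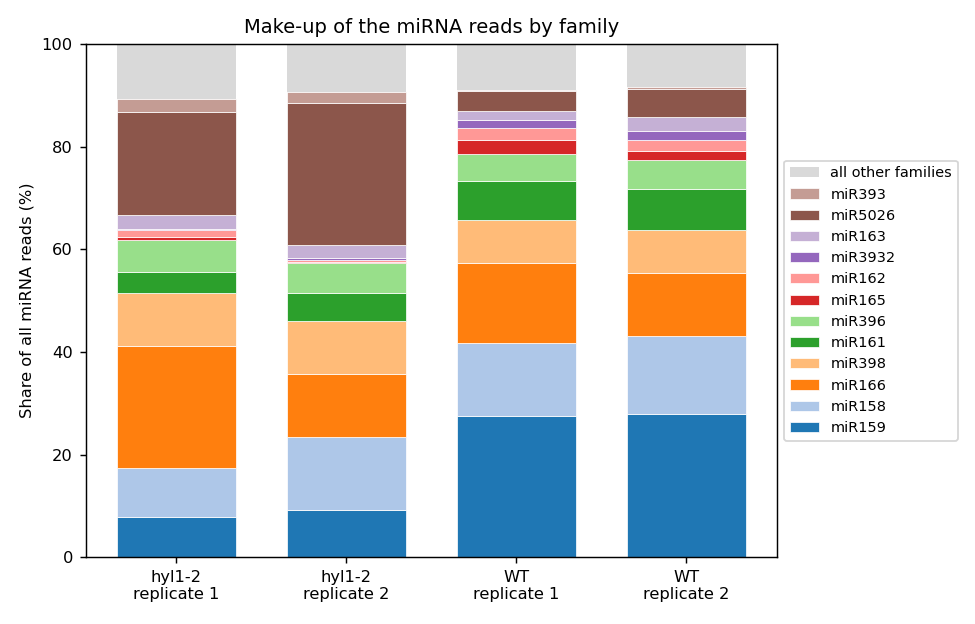
Share of all miRNA reads, in percent, taken by each of 12 families and by all other families together, in the 2 hyl1-2 libraries (left) and the 2 WT libraries (right). miR159 takes 7.79% and 9.21% in hyl1-2 against 27.5% and 27.9% in WT, and miR5026 takes 20.2% and 27.6% in hyl1-2 against 3.81% and 5.50% in WT.

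The 7 families with a higher share were miR840, miR393, miR866, miR5026, miR822, miR408 and miR168. Together they made up 26.6% and 32.8% of the miRNA reads in hyl1-2, against 5.16% and 6.69% in WT. miR393 had a share of 2.48% and 2.204% in hyl1-2, against 0.33% and 0.42% in WT, a log2 fold change of 2.64 (standard error 0.42). miR168 had 1.43% and 1.09% in hyl1-2, against 0.51% and 0.39% in WT. miR840 had the largest fitted rise in share, 5.86 with a standard error of 0.77 and an edgeR adjusted p of 9.88e-09, and it took 0.98% and 0.52% in hyl1-2, against 0.01% and 0.02% in WT. As said above, its hyl1-2 reads brought it past the filter. miR866 rested on 8 and 7 reads in hyl1-2, against 4 and 7 in WT. Only miR840 of the 7 had also passed the level test, so the higher shares of the other 6 came with levels for which no change was detected.

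The 11 families with a lower share were miR781, miR824, miR319, miR173, miR447, miR825, miR169, miR165, miR3932, miR159 and miR162, and all 11 were also lower in level. Together they made up 9.999% and 10.5% of the miRNA reads in hyl1-2, against 35.9% and 34.9% in WT. miR165 had a share of 0.56% and 0.27% in hyl1-2, against 2.77% and 1.76% in WT, a log2 fold change of -2.44 (standard error 0.44). miR162 had 1.29% and 0.31% in hyl1-2, against 2.39% and 2.17% in WT, with hyl1-2 replicate 1 well above hyl1-2 replicate 2.
The remaining 21 families did not pass the share test, among them miR158, miR166, miR398, miR161, miR396 and miR163. Their fitted changes of share lay between those of miR391 at -1.49 and miR845 at 1.48, and for the 6 abundant ones between -0.71 and 0.38, as the plot of fitted changes shows. miR161, at -0.71, had a share of 3.96% and 5.61% in hyl1-2, against 7.56% and 8.05% in WT, so that the genotypes did not overlap.

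**Figure D3:**
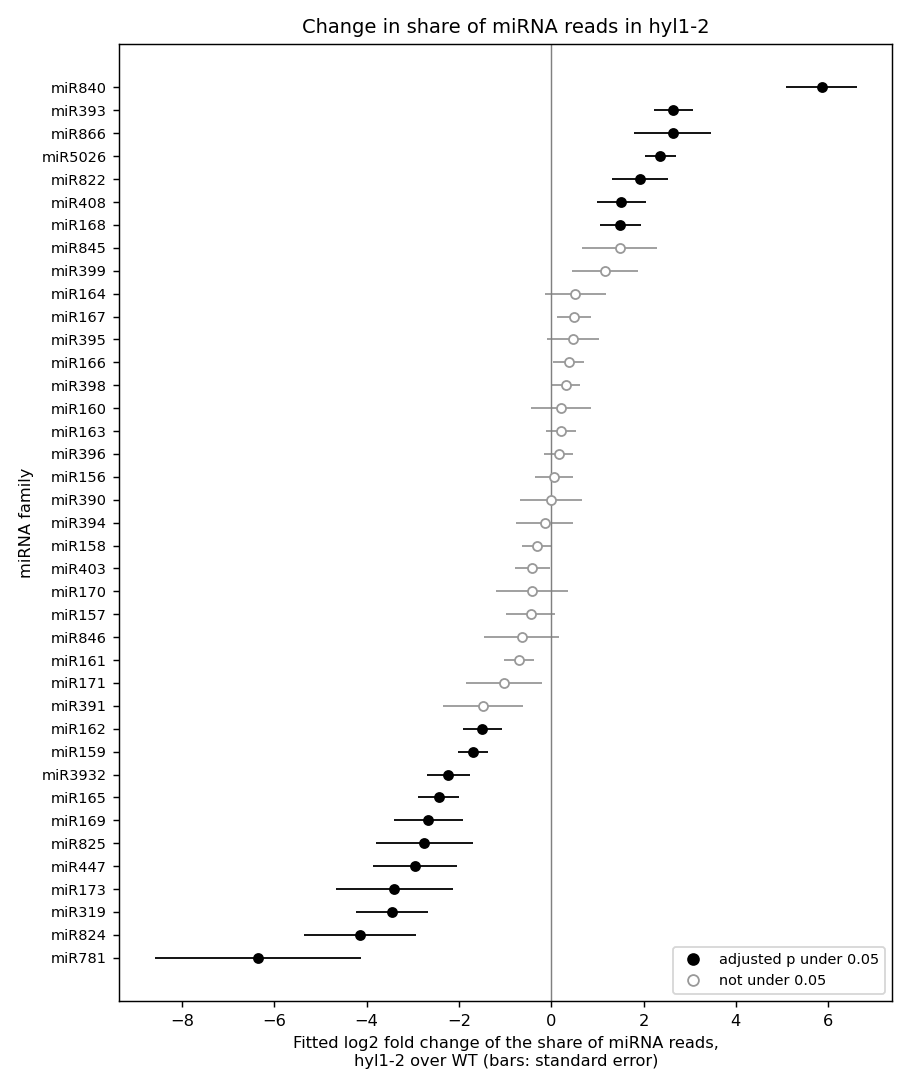
Fitted log2 fold change of the share of miRNA reads, hyl1-2 over WT, for the 39 tested families, with bars of 1 standard error; filled points had an adjusted p under 0.05 by edgeR. miR840 at 5.86 and miR781 at -6.36 are the ends of the range, miR781 from 0 reads in both hyl1-2 libraries, and the abundant families miR158, miR166, miR398, miR161, miR396 and miR163 lie between -0.71 (miR161) and 0.38 (miR166).

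Copies within a family also differed. Of the 59 tested sequences 40 were lower per genome-matched reads (67.8%) and 1 was higher (1.69%), and as shares 17 were lower (28.8%) and 8 higher (13.6%). Pairs of listed miRNAs of the same length with at most 2 base differences and at least 40 WT reads each were compared by the share of the rarer member, a comparison chosen after the values were seen. Of 10 such pairs, the rarer member had a lower share of the pair in both hyl1-2 libraries than in both WT libraries in 6, a higher share in 1, and overlapping shares in 3. In 3 of the 6 the 95% Wilson intervals of the genotypes were also apart. Reads identical to each member were counted, so the members were separated by 1 base in 8 pairs and by 2 in the others, and a read error at a single differing base would move a read between members.

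These 3 pairs are miR159a with miR159b-3p, miR165a-3p/b with the miR166 sequence, and miR396a-5p with miR396b-5p. The last pair is shown here because its members differ in the final base only.
miR396a-5p: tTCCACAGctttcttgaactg
miR396b-5p: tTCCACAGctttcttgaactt
With positions counted from the 5′ end, the commoner member's base first and the rarer member's base last, the pairs differ by T21A (miR159), T17C (miR165 and miR166) and T21G (miR396), all outside the seed. miR159a made up 18.7% and 16.6% of its pair in hyl1-2, against 42.7% and 39.8% in WT. It was at 2.38% of its WT level, while miR159b-3p was at 7.86%. miR165a-3p/b made up 2.27% and 2.25% of its pair with miR166 in hyl1-2, against 14.9% and 12.3% in WT. miR165a-3p/b was at 3.40% of its WT level and the miR166 sequence at 23.6%.

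The members of miR396 were also lost to unequal extents. miR396a-5p made up 6.39% (95% Wilson interval 4.29 to 9.40%) and 8.19% (5.52 to 11.98%) of its pair in hyl1-2, against 33.8% (31.1 to 36.5%) and 41.6% (38.8 to 44.5%) in WT. The partner strands, which differ more in sequence, were split in the same way between the loci. miR396a-3p had 9 and 12 reads in hyl1-2, against 492 and 405 in WT, at 2.02% of WT, and miR396b-3p had 82 and 91 reads in hyl1-2, against 149 and 137 in WT, at 52.1%. Both strands of MIR396a (AT2G10606, chromosome 2) together were at 3.26% of WT, and those of MIR396b (AT5G35407, chromosome 5) at 38.1%. MIR396a gave 7.10% and 9.11% of the reads of the 2 loci in hyl1-2, against 49.1% and 52.2% in WT. By edgeR, miR396a-3p and miR396a-5p were lower (adjusted p = 4.16e-05 and 0.000343), whereas miR396b-5p and miR396b-3p did not pass (0.125 and 0.359), and the difference between the loci was not tested.

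**Figure D4:**
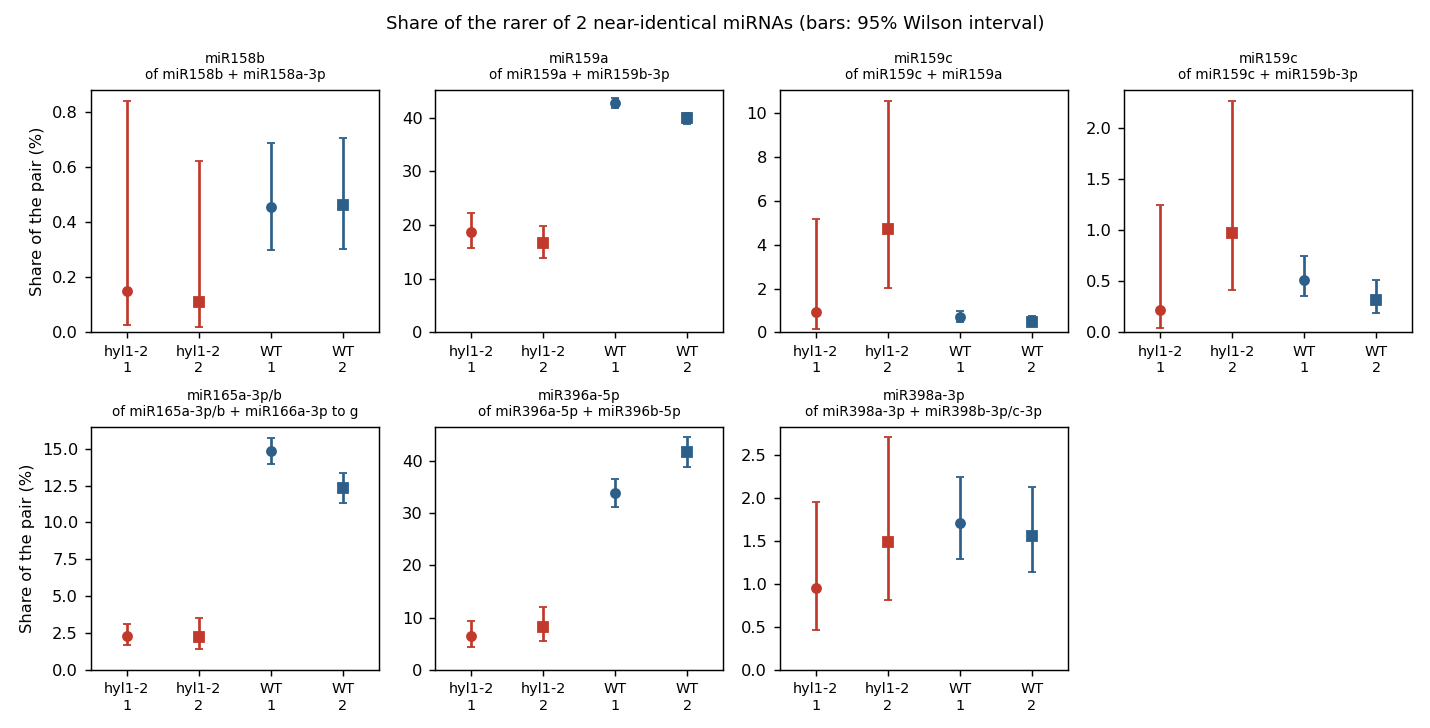
Share of the rarer member in pairs of near-identical miRNAs, in percent of the reads of both, in the 2 hyl1-2 (red) and 2 WT (blue) libraries, with 95% Wilson intervals, for the 7 pairs with at least 100 reads in every library. The intervals of hyl1-2 lie below those of WT for miR159a, miR165a-3p/b and miR396a-5p and overlap them in the other pairs.

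The balance of the 2 arms of the hairpin differed in either direction, but in no family beyond counting error in both hyl1-2 libraries. In 12 families with both arms listed and enough reads (at least 10 of the lesser arm in WT and 20 of the family in each hyl1-2 library), the arm that was the lesser in WT had a higher share in both hyl1-2 libraries in 2, a lower share in 5, and overlapped in 5. In miR159 and miR162, counted among the lower ones, the lesser arm had 0 reads in hyl1-2, and the upper limits there (0.84% and 0.75% for miR159, 4.01% and 15.5% for miR162) were above the WT shares, so no shift was detectable in them. The 2 with a higher share were miR408 and miR398, the only members of the copper list with enough reads for this comparison. In miR408 the 5p arm made up 30.8% and 44.1% in hyl1-2, against 12.3% and 21.4% in WT. Its reads numbered 16 and 26 in hyl1-2, against 16 and 12 in WT, while those of the 3p arm numbered 36 and 33 in hyl1-2, against 114 and 44 in WT. In miR398 the 5p arm made up 1.60% and 1.61% in hyl1-2, against 0.93% and 1.14% in WT. In miR396 the 3p arm made up 20.2% and 26.8% in hyl1-2, against 35.6% and 31.9% in WT, beside the change of locus described above. These shares were described without a test. In each of the 12 families an interval of hyl1-2 overlapped an interval of WT (95% Wilson), miR396, miR398 and miR408 among them. Single hyl1-2 libraries did lie apart from both WT libraries in some families. The 5p share of miR396 was 79.8% (75.9 to 83.3%) in hyl1-2 replicate 1, against 64.4% (62.1 to 66.5%) and 68.1% (65.8 to 70.3%) in WT. That of miR168 was 74.0% (62.9 to 82.7%) in hyl1-2 replicate 2 but 43.1% in hyl1-2 replicate 1, against 42.9% and 47.5% in WT.

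Several of the sequences that lost least began with adenine. Sequences with a first A were together at 91.6% of their WT level, against 13.8% for U (T in the sequences above), 12.9% for G and 23.0% for C. Their share of the miRNA reads was 25.01% and 31.9% in hyl1-2, against 4.90% and 6.54% in WT, most of it from miR5026. Without miR5026 they were at 78.1% of WT, and at 39.9% when miR393b-3p and miR840-5p were left out as well. Without miR5026 alone their share was 6.02% and 5.98% in hyl1-2, against 1.13% and 1.11% in WT. Of 9 tested sequences with a first A, 1 was lower in level, miR391-3p, and 1 higher, miR840-5p. The other 7 did not pass, among them miR390a-5p/b-5p at 26.1% of WT (adjusted p = 0.0538, edgeR). As shares 0 of the 9 were lower and 5 were higher: miR840-5p, miR5026, miR393b-3p, miR408-5p and miR866-3p. miR840-5p had 69 and 34 reads in hyl1-2, against 2 and 5 in WT. Its hyl1-2 reads alone brought it past the read filter, so its rise does not count towards a pattern by first base. Of 35 tested sequences with a first U, 28 were lower in level and 13 in share. Over all 59 tested sequences the shares called were 67.8% lower in level, 28.8% lower in share and 13.6% higher in share. The first base was examined among several features of the sequences, and its part in the loss was not tested.

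**Figure D5:**
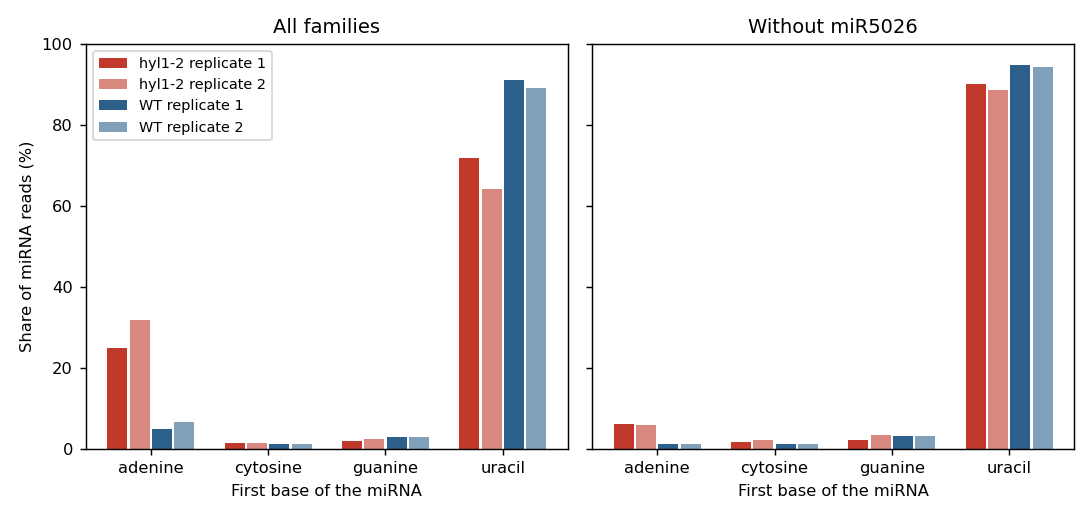
Share of all miRNA reads, in percent, by the first base of the miRNA in the 2 hyl1-2 (red) and 2 WT (blue) libraries, with all families (left panel) and without miR5026 (right panel). Sequences with a first adenine take 25.01% and 31.9% in hyl1-2 against 4.90% and 6.54% in WT, and without miR5026 6.02% and 5.98% against 1.13% and 1.11%.

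By length, sequences of 20 nt were at 15.1% of WT, those of 21 nt at 18.6%, those of 22 nt at 38.1%, those of 23 nt at 44.3% and those of 24 nt, almost all miR163, at 21.3%. The 22 nt value rested largely on miR840-5p. All 22 nt sequences together had 51.0 and 39.1 RPTM in hyl1-2, against 117 and 120 RPTM in WT. Of this, miR840-5p had 35.2 and 18.5 RPTM in hyl1-2, against 1.22 and 3.07 RPTM in WT. The 22 nt sequences held 0.55% and 0.64% of the WT miRNA reads and the 23 nt sequences 0.069% and 0.062%. Across the 39 tested families, which share libraries and so are not independent, the log2 change in level had a Pearson's r of 0.05 with the GC content, -0.13 with the length of the precursor, -0.02 with the number of loci and -0.14 with the WT level. Outside the tested families, 59 families had reads in hyl1-2 or WT, 105 reads in hyl1-2 and 355 in WT in all, at 25.5% of the WT level. Of these, 3 were seen in hyl1-2 only with at most 2 reads, 33 in WT only with at most 8 reads, and 23 in both. The 95% interval of the pooled ratio, which covers counting error only, lay below 100% of WT in 15 of the 59, such as miR5996 at 22.1% (9.34 to 46.9%), and above it in 0. For the others neither loss nor retention was detectable at this depth. With no filter on low counts, edgeR gave 2 of the 59 a higher share, miR5642 with 6 and 16 reads in hyl1-2, against 7 and 4 in WT, and miR8175 with 8 and 3 reads in hyl1-2, against 5 and 2 in WT.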

How the data were processed

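Small RNA was sequenced by the authors with Illumina HiSeq chemistry. After adaptor removal they retained 18 to 30 nt reads, aligned these to TAIR10, and took those that matched a miRBase 21 mature miRNA exactly. The mapper is not given in the sources used here. The deposited counts are raw reads of each mature sequence. The deposited RPTM values are a signal that the authors obtained by scaling counts to 10000000 genome-matched reads. Library totals were recovered from both. Genotype and replicate came from the sample titles. By a chi-square test of their counts, replicates differed by more than sampling noise (13.6 per degree of freedom in hyl1-2, 10.5 in WT).

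Counts were summed per family. A sequence named for 2 numbers was counted under the first (2 sequences). Families or sequences averaging 10 reads or more across the 6 libraries were tested with edgeR 4.0.16 (glmQLFit, glmQLFTest) in R 4.3.3, genotype as the only term, no TMM factors, and genome-matched totals (levels) or miRNA totals (shares) as library sizes. Standard errors were derived from the log2 fold change and F. The biological coefficient of variation was 50.4% for levels (31.8% with hyl1-2 and WT only) and 28.4% for shares (30.8%). The scripts were tested on simulated data. A floor of 3 reads was 1.53 to 1.84 RPTM in these libraries. It was used only where no read was seen, and pooled reads with an exact binomial interval were used for 1 to 3 reads. Shares carry 95% Wilson intervals. The rest was done with scipy 1.17.1, numpy 2.4.6, pandas 2.3.3 and matplotlib 3.10.9 in Python 3.11.15. Positions are exact matches to TAIR10.1 with RefSeq genes. All 174 sequences with reads matched.

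Alternatives were TMM factors, miRNA totals, DESeq2 1.42.0, limma 3.58.1 on log2 RPTM with pseudocounts of 0.5, 1 or 5, other filters, hyl1-2 and WT only, merged sister families, replicate blocks and leaving out each replicate. Named are the 10 families most abundant in WT, the 5 lowest and 5 highest relative to WT (at least 10 RPTM), the 5 largest rises and falls in share past the threshold, members of target lists, and the leading sequences of these. Other families and sequences, the near-identical pairs and the miR396 loci were chosen after their values were seen. The families and lists were chosen with earlier results of these data known.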

Additional observations from a re-analysis of the deposited data

How the results depend on the processing

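Scaling to genome-matched reads keeps a loss common to all miRNAs, and scaling to miRNA reads does not. Per genome-matched reads 28 families were lower and 1 higher. TMM factors gave 11 lower and 7 higher, miRNA totals 11 and 7, and DESeq2's own size factors 9 and 7. For sequences (40 lower, 1 higher) these settings gave 15 and 12, 17 and 8, and 10 and 10. Under these 3 settings in this order the log2 fold change turned positive for miR5026 (2.49, 2.36 and 2.50), miR822 (2.04, 1.92 and 2.05), miR408 (1.61, 1.52 and 1.69), miR168 (1.60, 1.495 and 1.65), miR166 (0.48, 0.38 and 0.52), miR398 (0.42, 0.31 and 0.46), miR396 (0.28, 0.16 and 0.31) and miR163 (0.33, 0.20 and 0.34).

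With no filter on low counts edgeR called 0 families and 0 sequences lower or higher in level, with 38 families and 64 sequences lower and 1 of each higher at an unadjusted p under 0.05. At a mean of at least 50 reads, where 21 families and 25 sequences were tested, 16 families and 18 sequences were lower and 0 higher, with 0 at an unadjusted p under 0.05. miR840 had too few reads for that filter, so the 0 does not bear on it. DESeq2 with genome-matched totals and limma called 30 families lower and 1 higher. Leaving out 1 replicate gave 11 to 13 families and 18 to 20 sequences lower, and 0 to 1 of each higher. For shares (11 lower, 7 higher), the filter at 50 reads gave 5 and 4, the 4 libraries of hyl1-2 and WT alone 3 and 5, and leaving out 1 replicate 7 to 9 and 5 to 6.

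The labels number the replicates without saying that a number marks a shared origin. Same-numbered hyl1-2 and WT libraries deviated with a Pearson's r of 0.31 across families (0.15 for shares), and WT and snrk2.2/3/6 libraries with -0.42. With the replicate number as a block 30 families were lower and 1 higher in level, 6 and 6 in share, and 38 and 1 sequences. With the snrk2.2/3/6 numbers crossed, an alternative added after seeing the data, these were 29 and 1, 10 and 7, and 42 and 1.

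Without miR159 the total was 23.1% of WT. The median family was at 16.1% with at least 50 RPTM in WT, at 16.1% over the families tested, and at 13.9% to 17.9% when 1 replicate was left out. Changes near 0 also reversed when 1 replicate was left out. In level miR5026 ranged from -0.32 to 0.12, with values above 0 without hyl1-2 replicate 1 (0.12) or WT replicate 2 (0.11), and miR866 from -0.12 (without WT replicate 1) to 0.67. In share miR166 ranged from -0.17 (without hyl1-2 replicate 1) to 0.77 and miR163 from -0.083 (without WT replicate 1) to 0.56. The share of miR158 reversed with miR5026 left out of the total (0.020, added after seeing the data), and those of miR398 (-0.029), miR396 (-0.18) and miR163 (-0.14) with miR159 left out of it. The causes of these changes were not tested. Families of few reads limit the rest: the 2 libraries per genotype leave wide standard errors.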
